A study of Homo sapiens with 16 samples.

Results

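The CCAAT/enhancer-binding proteins (C/EBPs) are transcription factors of the basic leucine zipper class, and 5 of the 60603 genes counted encode them: CEBPA, CEBPB, CEBPD, CEBPE and CEBPG. These genes were taken by symbol from the table of estimated counts. C/EBP proteins bind DNA as pairs, with themselves, with each other or with related zipper proteins such as ATF4, and in myeloid cells they act in sequence. C/EBPα commits progenitors to the granulocyte and monocyte lineages and restrains division, C/EBPβ takes over in stress-driven granulopoiesis and in macrophages, and C/EBPε drives the late granulocyte stages in which secondary granules form. C/EBPδ is an inflammatory family member, and C/EBPγ lacks an activation domain and acts as a pairing partner of the others and of ATF4. Retinoic acid is used to induce granulocyte differentiation in leukaemia, where CEBPE is a known retinoid-responsive gene.

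RNA was measured in 16 libraries of 2 human cell lines of acute myeloid leukaemia. The first, SKNO-1, carries the RUNX1-RUNX1T1 fusion, whose protein is known to repress C/EBPα. The second, U-937, resembles monocytes. Each line received the solvent DMSO, all-trans retinoic acid (ATRA), Corin, or ATRA and Corin together, for 24 h, with 0.1 µM of each agent and 2 libraries in each of the 8 groups. ATRA activates retinoic acid receptors, and Corin inhibits both the demethylase LSD1 and the histone deacetylases of the CoREST complex. All SKNO-1 cultures, DMSO included, also had GM-CSF at 10 ng/mL in the medium, and the U-937 cultures did not, so line and medium cannot be told apart. The labels do not say whether the 2 libraries of a group came from separate cultures, so p-values measure the spread between these libraries, which may be technical.

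Library totals ran from 28.4 to 37.8 M estimated counts. Levels are given in CPM, counts per 1 M reads after TMM scaling over all 16 libraries, and a gene is called changed at an adjusted p under 0.05 in edgeR's quasi-likelihood test. RUNX1T1 was at 95.4 to 155.5 CPM in SKNO-1 and at or below 0.033 CPM in U-937, while HOXA9 and HOXA10 were at 37.1 CPM or higher in U-937 and at 0 in SKNO-1. CD33, a myeloid surface marker, was at 68.4 CPM or higher in every library. Of the markers of other cell types, MS4A1, HBB, ALAS2 and PF4 were at 0 in all libraries, and CD79A of B cells and CD2 of T cells were at or below 3.11 CPM, with a summed level of 0 to 3.11 CPM for T cells. The exception was ITGA2B, a megakaryocyte integrin, at 12.7 and 7.61 CPM in SKNO-1 with DMSO, 4.31 and 4.58 CPM with ATRA, 37.4 and 37.9 CPM with Corin and 33.8 and 32.9 CPM with both. The summed level of the 3 megakaryocyte markers in SKNO-1 was 7.61 to 12.7 CPM with DMSO, 4.31 to 4.58 CPM with ATRA, 37.5 to 37.9 CPM with Corin and 32.9 to 33.8 CPM with both, PF4 being at 0, and its part in the SKNO-1 results was not tested. The pair of SKNO-1 DMSO libraries stood apart: across 9132 genes their log2 difference had an SD of 0.361, against 0.11 to 0.209 for the other groups, and it followed gene GC content (r = 0.787 across genes, which are not independent replicates). The values of the C/EBP genes against DMSO in SKNO-1 are therefore also given without each of these 2 libraries, which was not run for the genes of the lists. In bulk RNA, fewer cells with a transcript and less of it per cell cannot be told apart.

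In GRCh38 with GENCODE 44, CEBPA lies at chr19:33299934-33302534 on the minus strand and CEBPG at chr19:33373685-33382686 on the plus strand, with start sites 71151 bases apart. CEBPB is at chr20:50190830-50192668 (plus strand) and CEBPE at chr14:23117036-23120256 (minus). CEBPA and CEBPB each consist of 1 exon. Their transcripts are rich in G and C, at 65.9% and 66.2%, and that of CEBPE is at 61.5%, whereas that of CEBPG is at 39.8% (median of all genes 46.6%). CEBPB-AS1, a non-coding gene on the opposite strand, overlaps CEBPB. It had 2 to 27 counts per library against 165 or more for CEBPB, and because the use of strand in counting is not stated, reads of the overlap cannot be assigned with certainty.

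The promoters of CEBPE and CEBPB differ in composition and are shown because these genes rose most in U-937 with ATRA and with both agents. In SKNO-1 the test of all 8 libraries did not call CEBPE higher than with DMSO in any treatment. RefSeq promoter windows on GRCh38.p14, 250 bases before to 50 after a start site, were found for 4 members and not for CEBPD. The CEBPE window held 2 CpG dinucleotides, where the median window held 14, and was 57.7% G and C (median 58.7%). Both CEBPB windows, the CEBPA window and both CEBPG windows had 31 to 50 CpG and 76.7% to 80.7% G and C. The 250 bases before the CEBPE start, chr14:23119256-23119505 on the minus strand, lie within introns of longer GENCODE transcripts of the gene. Capitals mark GAGGAAG, the core recognised by the myeloid factor PU.1, which 13.6% of the 35116 windows held on either strand.
CEBPE: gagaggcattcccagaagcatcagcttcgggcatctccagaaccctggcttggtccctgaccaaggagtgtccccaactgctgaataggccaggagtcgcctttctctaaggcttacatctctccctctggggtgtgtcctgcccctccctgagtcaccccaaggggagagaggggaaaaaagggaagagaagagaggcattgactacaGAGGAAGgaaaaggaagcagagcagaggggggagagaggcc

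The 250 bases before the first RefSeq start of CEBPB, chr20:50190333-50190582 on the plus strand, lie in an intron of CEBPB-AS1 and hold the GC box GGGCGG repeatedly, marked in capitals on either strand. At least 1 GC box was present in 45% of all windows.
CEBPB: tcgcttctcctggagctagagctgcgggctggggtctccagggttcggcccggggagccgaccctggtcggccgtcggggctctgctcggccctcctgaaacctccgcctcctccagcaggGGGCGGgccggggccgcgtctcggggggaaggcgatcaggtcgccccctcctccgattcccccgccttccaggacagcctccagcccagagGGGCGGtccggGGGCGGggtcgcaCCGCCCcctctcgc

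Short stretches show 2 further motifs in the other windows. TATAAA, found in 11.5% of windows, stood before the second start of CEBPB (chr20:50190800-50190829, plus strand) and before that of CEBPA (chr19:33302536-33302565, minus strand). TGATGNAA, the composite at which a C/EBP pairs with ATF4, found in 3.62% of windows, stood before the second start of CEBPG (chr19:33374063-33374092, plus strand).
CEBPB second start: tTATAAAtaaccgggctcaggagaaacttt
CEBPA: gTATAAAagctgggccggcgcgggccgggc
CEBPG second start: gcggcgtcTGATGCAAcctgccggcaacac
No member window held TTNNGNAA, a loose form of the C/EBP site (36.8% of windows), on either strand. The retinoid half-site was AGGTCA or one of its variants (AGTTCA, then also GGGTCA and lastly GGTTCA). No member window held it as a direct repeat spaced by 5, 2 or 1 bases (0.0883%, 0.0399% and 0.131% of windows), on either strand. These are matches of letters within the windows and say nothing of binding.

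In untreated cells the lines differed in every member. All 5 were called between U-937 and SKNO-1 with DMSO, where 64.8% of the 19872 genes tested in both lines were called. CEBPA was at 129.1 and 126.1 CPM in U-937 and at 9.99 and 7.5 CPM in SKNO-1, 14.6-fold higher in U-937 (log2 difference 3.87, SE 0.134, adjusted p = 6.16e-15). CEBPB was 2.31-fold higher in U-937 (log2 difference 1.21, SE 0.157, adjusted p = 1.65e-06) and CEBPG 1.79-fold (log2 difference 0.84, SE 0.0941, adjusted p = 2.15e-07). The order was the opposite for CEBPE, at 17.2 and 9.13 CPM in SKNO-1 and 2.96 and 3.24 CPM in U-937, which is 4.24-fold lower in U-937 (log2 difference -2.08, SE 0.244, adjusted p = 1.65e-06). The SKNO-1 pair for CEBPE was wide, and the difference was -1.49 without the first SKNO-1 DMSO library and -2.46 without the second. CEBPD had 0 counts in all 8 U-937 libraries, which allows at most 0.011 CPM over them (3 counts, counting error only), and 427 counts over the 2 SKNO-1 DMSO libraries. It was at least 131.6-fold lower in U-937 with DMSO, and the bound was 181.8-fold with ATRA, 94.8-fold with Corin and 76-fold with both, against 3 counts over the U-937 group.

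**Figure D1:**
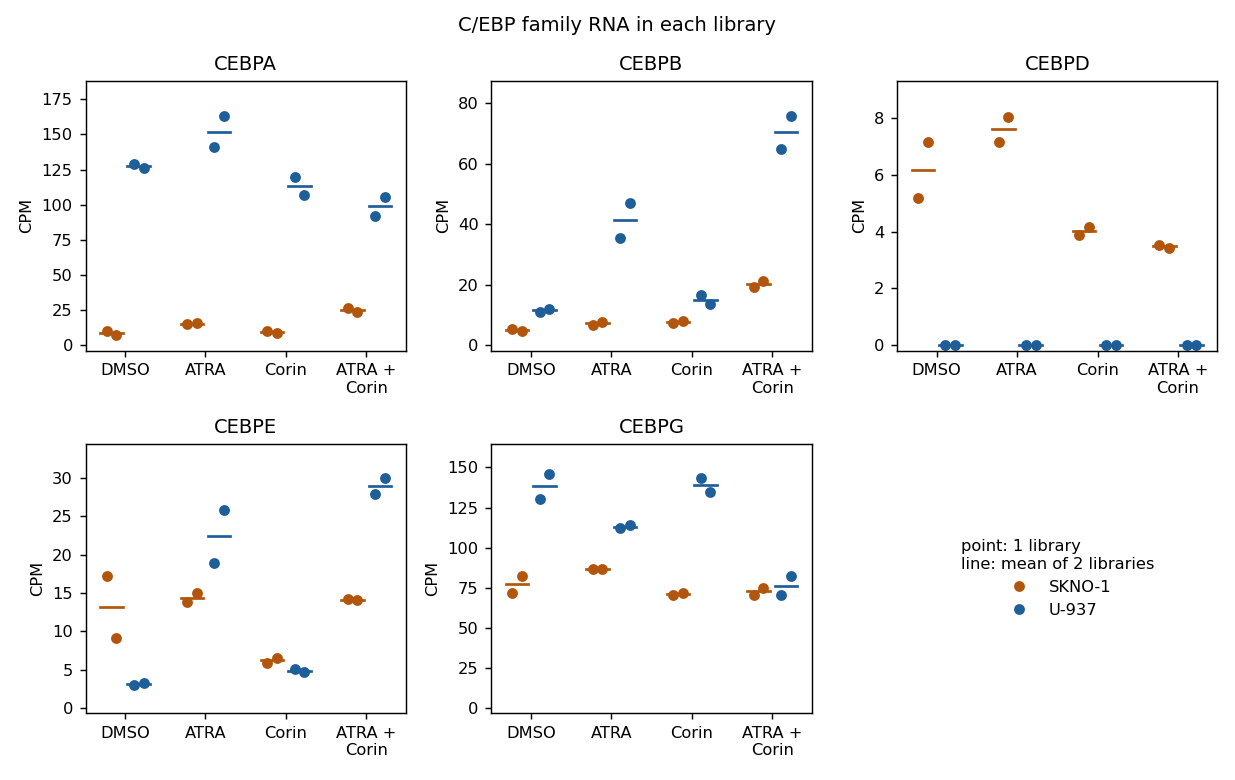
CPM of each C/EBP gene (vertical axis, from 0, a scale of its own per gene) in each treatment group (horizontal axis), SKNO-1 in orange and U-937 in blue; points are single libraries and lines are means of 2. CEBPA in U-937 lies between 92.3 and 163.1 CPM and in SKNO-1 at or below 26.5 CPM, CEBPB is highest with both agents in each line, and CEBPD is at 0 in U-937.

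Compared per length within a library, as shares of the 5 genes' summed TPM (the authors' length-scaled unit), the make-up of the family differed between the lines and moved with treatment. In SKNO-1 with DMSO CEBPG held 50.7% and 59.8% and CEBPE 27.4% and 16.6%. CEBPA (9.27% and 7.91%), CEBPD (5.8% and 9.11%) and CEBPB (6.75% and 6.63%) followed, and the TPM of neighbours in that order overlapped between libraries. In U-937 with DMSO CEBPA came first, with 53.2% and 50.5%, before CEBPG (38.5% and 40.8%), CEBPB (6.19% and 6.49%) and CEBPE (2.09% and 2.23%), with no overlap between neighbours. With both agents CEBPB reached 31.6% and 32% in U-937, close behind CEBPA at 33.4% and 33.2%, and CEBPE (17.3% and 16.2%) came close to CEBPG (17.6% and 18.5%), with no overlap in TPM in either case. In SKNO-1 with both agents CEBPG still came first, at 37.9% and 39.7%. The next 3, CEBPB (19.8% and 21.3%), CEBPA (20.3% and 18%) and CEBPE (18.7% and 18%), overlapped with their neighbours, and CEBPD was down to 3.27% and 3.07%. Only shares within a library are compared here, because RNAs with an effective length under 400 bases held 46.1% to 64.2% of all TPM and most in the groups with both agents, so TPM levels are not comparable between groups. The authors' annotation release is not given. Their lengths exceeded the longest GENCODE 44 transcript for CEBPD (2178 against 1252 bases), CEBPE (1554 against 1266) and CEBPB (1956 against 1839). The shares depend on these lengths.

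**Figure D2:**
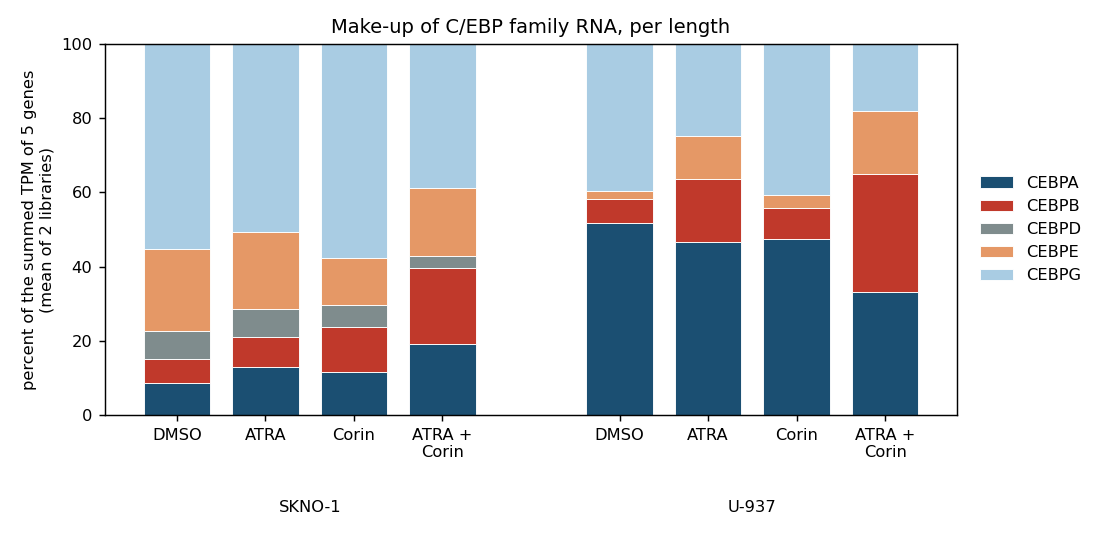
Share of each C/EBP gene in the summed TPM of the 5 genes (vertical axis, percent) in the 8 groups (horizontal axis, 4 treatments in SKNO-1, then in U-937); segments are means of 2 libraries. The CEBPB segment grows from 6.34% with DMSO to 31.8% with both agents in U-937 and from 6.69% to 20.5% in SKNO-1.

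Against DMSO, the number of members that changed depended on line and agent, in the direction and size shown in the plot of log2 fold changes. In SKNO-1, ATRA changed 2 of 5 (6.76% of the 17479 genes tested were called), Corin 3 of 5 (37.9%) and both agents 3 of 5 (46.7%). In U-937, where CEBPD could not be tested, ATRA changed 3 of 4 (41.8% of 17717 genes), Corin 1 of 4 (12.9%) and both 4 of 4 (65.3%). In a fit of only the libraries compared, none of the SKNO-1 calls with ATRA or with Corin was kept (adjusted p = 0.0605 to 0.299).

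**Figure D3:**
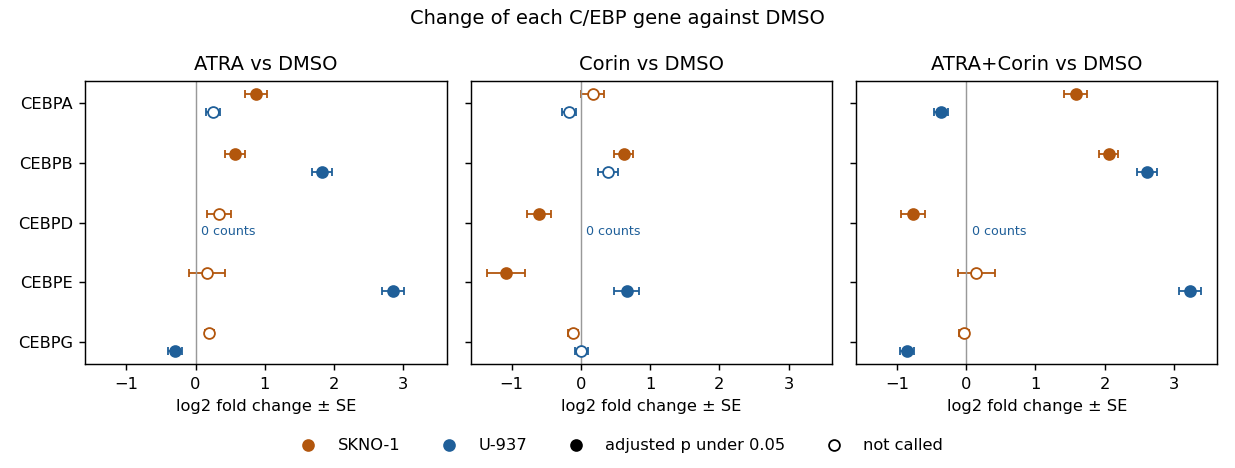
Log2 fold change against DMSO with its standard error (horizontal axis) for each C/EBP gene (vertical axis), 1 panel per treatment, SKNO-1 in orange and U-937 in blue; filled points have an adjusted p under 0.05 and open points do not. CEBPE and CEBPB lie far to the right with ATRA in U-937 (2.85 and 1.83), while in SKNO-1 CEBPE lies at 0.16 with ATRA and at -1.08 with Corin.

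CEBPA, the lineage-commitment factor, rose in SKNO-1 and fell in U-937 with both agents. In SKNO-1 it was at 9.99 and 7.5 CPM with DMSO, 15.3 and 15.8 CPM with ATRA, 10.6 and 8.99 CPM with Corin and 26.5 and 24.1 CPM with both. Libraries with ATRA lay above those without, and those with both agents lay above all others. CEBPA rose 1.82-fold with ATRA (log2 fold change 0.87, SE 0.162, adjusted p = 0.0162) and 3-fold with both (1.58, SE 0.162, adjusted p = 1.76e-04). With Corin its log2 fold change was 0.17 (adjusted p = 0.464), and a DMSO library decided its sign and call: it was 0.39 (adjusted p = 0.0166) without the first and -0.07 (adjusted p = 0.689) without the second. The rise with both agents was 1.81 without the first DMSO library and 1.36 without the second, and 1.09 at its lowest over all alternatives. The rise with ATRA was 1.07 without the first DMSO library and 0.61 without the second, and it lost its call when either ATRA library was left out (adjusted p = 0.111 and 0.132). In U-937 CEBPA was at 129.1 and 126.1 CPM with DMSO, 140.8 and 163.1 CPM with ATRA, 119.4 and 107 CPM with Corin and 92.3 and 105.8 CPM with both. The groups with ATRA alone and with both agents did not overlap with DMSO and lay on opposite sides of it. CEBPA fell 1.28-fold with both agents (log2 fold change -0.36, SE 0.104, adjusted p = 0.00415), and its values with ATRA (0.25, adjusted p = 0.0552) and Corin (-0.17, adjusted p = 0.327) did not pass the test. The value with ATRA did pass in a fit of only the libraries compared (0.24, adjusted p = 0.0204) and without the first ATRA library (0.35, adjusted p = 0.0453). The fall with both agents was -0.25 (adjusted p = 0.115) once a trend on gene GC content was removed and -0.26 (adjusted p = 0.0646) without the first library with both agents.

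The non-coding CEBPA-DT starts next to CEBPA on the opposite strand. In SKNO-1 with both agents it rose from 1.05 and 0.705 CPM to 1.77 and 1.84 CPM (log2 fold change 1.09, adjusted p = 0.0113). In U-937 with both agents it fell from 1.63 and 1.74 CPM to 0.852 and 0.892 CPM (log2 fold change -0.94, adjusted p = 0.0106). CEBPA-DT had the sign of CEBPA in both lines here, at 25 to 60 counts per library. With single agents the signs were opposite for ATRA in U-937 only. There CEBPA-DT was at -0.65 (adjusted p = 0.0897) and CEBPA at 0.25 (adjusted p = 0.0552), neither of them called.

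CEBPB, the stress and macrophage factor, rose with both agents in each line. In SKNO-1 it was at 5.4 and 4.65 CPM with DMSO, 6.86 and 7.71 CPM with ATRA, 7.55 and 7.91 CPM with Corin and 19.2 and 21.2 CPM with both. The single agents gave values just above DMSO with no overlap, and the combination lay well above them. The log2 fold change was 0.57 with ATRA (SE 0.138, adjusted p = 0.0489), 0.62 with Corin (SE 0.138, adjusted p = 0.0093) and 2.06 with both (SE 0.137, adjusted p = 2.32e-05), which is 4.16-fold. The value with both was 1.55 at its lowest over all alternatives. The call with ATRA was at the threshold and was lost with DESeq2 (0.54, adjusted p = 0.0681) with a term for the replicate number (adjusted p = 0.098) and with the GC trend removed (0.49, adjusted p = 0.0824), and without either ATRA library (0.61, adjusted p = 0.165, and 0.44, adjusted p = 0.361). With Corin it was lost without the second Corin library (0.59, adjusted p = 0.0665). Without the first DMSO library the values with ATRA, Corin and both were 0.66, 0.74 and 2.18, and without the second they were 0.41, 0.48 and 1.92, each of them called.

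In U-937 CEBPB was at 11.2 and 12 CPM with DMSO, 35.5 and 47 CPM with ATRA, 16.6 and 13.6 CPM with Corin and 64.9 and 75.8 CPM with both. The 4 groups did not overlap. CEBPB rose 3.56-fold with ATRA (log2 fold change 1.83, SE 0.142, adjusted p = 6.10e-09) and 6.1-fold with both (2.61, SE 0.143, adjusted p = 8.98e-12), and with Corin its log2 fold change was 0.39 (SE 0.146, adjusted p = 0.0887). This last value was called with no filter on low counts (adjusted p = 0.0277), in a fit of only the libraries compared (0.40, adjusted p = 0.0445) and without the second Corin library (0.53, adjusted p = 0.0411). The rises with ATRA and with both were called under each alternative run. In the authors' deposited table, CEBPB with both agents had a log2 fold change of 1.99 for SKNO-1 cells (adjusted p = 2.48e-16) and of 2.58 for those of U-937 (adjusted p = 2.49e-63). The authors' deposited table differs from the calls given here in SKNO-1 for CEBPB with ATRA (0.56, adjusted p = 0.544) and with Corin (0.59, adjusted p = 0.103) and for CEBPD with Corin (-0.65, adjusted p = 0.128). In U-937 the authors' deposited table does not call CEBPE with Corin (0.65, adjusted p = 0.156) and does call CEBPA with ATRA (0.24, adjusted p = 0.0274). CEBPB-AS1, on the other strand, was lower with both agents in both lines, at 8 and 8 counts against 17 and 19 in SKNO-1 (log2 fold change -1.01, adjusted p = 0.0492) and 2 and 2 counts against 13 and 14 in U-937 (-2.72, adjusted p = 0.0014).

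CEBPE, the late granulocyte factor, had the largest change of the family in U-937. It was at 2.96 and 3.24 CPM with DMSO, 18.9 and 25.9 CPM with ATRA, 5.1 and 4.65 CPM with Corin and 27.9 and 30 CPM with both. The groups did not overlap, and the order was the one seen for CEBPB. The rise was 7.21-fold with ATRA (log2 fold change 2.85, SE 0.162, adjusted p = 1.08e-12), 1.58-fold with Corin (0.66, SE 0.176, adjusted p = 0.0129) and 9.37-fold with both (3.23, SE 0.162, adjusted p = 2.06e-14). The call with Corin was lost when the GC trend was removed (0.49, adjusted p = 0.0892) and without the first Corin library or either DMSO library (0.58 to 0.72, adjusted p = 0.0528 to 0.118).

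In SKNO-1 CEBPE was at 17.2 and 9.13 CPM with DMSO, 13.8 and 15 CPM with ATRA, 5.93 and 6.52 CPM with Corin and 14.2 and 14.1 CPM with both. The DMSO pair spanned the groups with ATRA and with both agents, and the Corin libraries lay below all others. CEBPE fell 2.12-fold with Corin (log2 fold change -1.08, SE 0.272, adjusted p = 0.0158), while the values with ATRA (0.16, SE 0.261, adjusted p = 0.837) and with both (0.15, SE 0.261, adjusted p = 0.674) did not pass the test. The sign of these last 2 depended on which DMSO library was kept. Without the first DMSO library CEBPE was at 0.68 with ATRA and 0.69 with both, and without the second at -0.28 and -0.27. Whether CEBPE responded to ATRA or to both agents in SKNO-1 is therefore not settled by these libraries. The fall with Corin was -0.55 (adjusted p = 0.00165) without the first DMSO library and -1.50 without the second, and its call was lost without the first Corin library (-1.02, adjusted p = 0.103) or the second (-1.15, adjusted p = 0.0797).

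**Figure D4:**
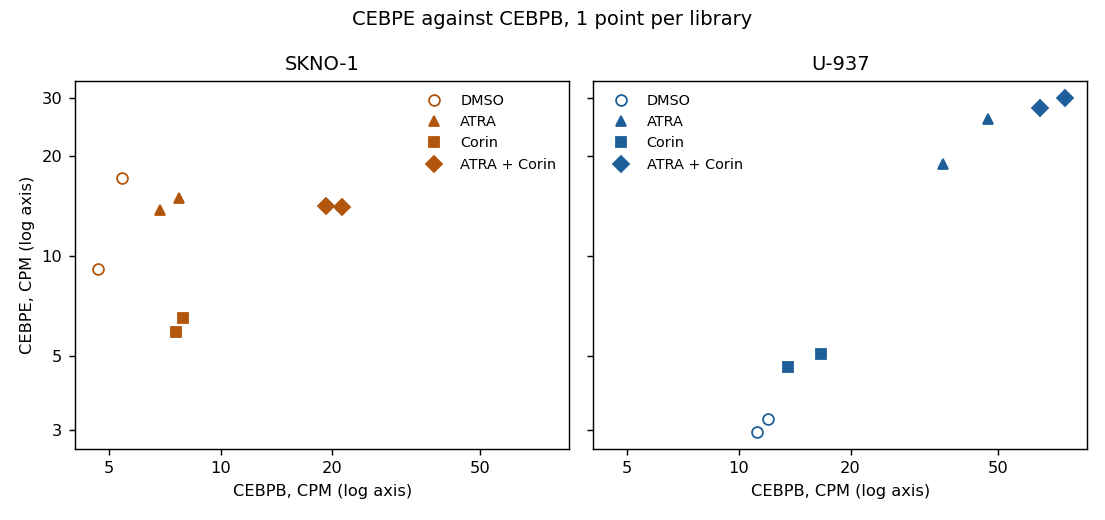
CEBPE against CEBPB in CPM, both on log axes, 1 point per library, SKNO-1 left and U-937 right; symbols mark the treatment. In U-937 the 8 points run along 1 line from DMSO to both agents, while in SKNO-1 the Corin points lie low in CEBPE at a CEBPB level similar to ATRA.

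The plot of CEBPE against CEBPB shows this difference between the lines. Over the 8 libraries of U-937, in 4 treatments, the log2 CPM of the 2 genes had a Pearson r of 0.984, and over the 8 of SKNO-1 r was 0.235. These are descriptions, since libraries of a group share their treatment.

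CEBPD, the inflammatory member, was measurable in SKNO-1 only and fell with Corin. The gene has 1 exon and lies at chr8:47736913-47738164 on the minus strand. It was at 5.19 and 7.16 CPM with DMSO, 7.14 and 8.04 CPM with ATRA, 3.87 and 4.17 CPM with Corin and 3.54 and 3.43 CPM with both. The 4 libraries with Corin lay below the other 4, and DMSO overlapped with ATRA. The log2 fold change was -0.61 with Corin (SE 0.174, adjusted p = 0.0253), -0.77 with both (SE 0.176, adjusted p = 0.00802) and 0.34 with ATRA (SE 0.168, adjusted p = 0.35). The value with ATRA was 0.10 (adjusted p = 0.692) without the first DMSO library and 0.53, and called (adjusted p = 0.0268), without the second. The value with Corin was -0.83 without the first DMSO library, and its call was lost without the second (-0.41, adjusted p = 0.0579), without either Corin library (-0.56, adjusted p = 0.137, and -0.67, adjusted p = 0.0941) and with the GC trend removed (-0.52, adjusted p = 0.348). The fall with both agents was -0.98 without the first DMSO library and -0.56 without the second, and -0.75 (adjusted p = 0.0573) without the second library with both agents. It was -1.36 (adjusted p = 0.0354) with the GC trend removed.

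CEBPG, the partner without an activation domain, passed no test against DMSO in SKNO-1 and fell in U-937 with ATRA and with both agents. In SKNO-1 it was at 71.8 and 82.4 CPM with DMSO, 86.5 and 86.4 CPM with ATRA, 70.6 and 71.6 CPM with Corin and 70.6 and 75.1 CPM with both. The log2 fold changes against DMSO with ATRA, Corin and both were small (0.20, -0.11 and -0.03, adjusted p = 0.158, 0.238 and 0.749), but 0.24 with ATRA was called without the second DMSO library (adjusted p = 0.00242) and -0.21 with Corin without the first (adjusted p = 0.00259), as were 0.21 (adjusted p = 0.0147) and -0.14 (adjusted p = 0.0336) with the GC trend removed. With the other DMSO library left out these were 0.08 with ATRA and -0.05 with Corin, and the value with both agents was -0.12 without the first and 0.04 without the second. In U-937 CEBPG was at 130.4 and 146 CPM with DMSO, 112.3 and 114 CPM with ATRA, 143.6 and 134.6 CPM with Corin and 70.5 and 82.3 CPM with both. The libraries with both agents lay below all other U-937 libraries and overlapped with those of SKNO-1. CEBPG fell 1.8-fold with both (log2 fold change -0.85, SE 0.102, adjusted p = 1.03e-07) and 1.22-fold with ATRA (-0.29, SE 0.1, adjusted p = 0.023), and with Corin the log2 fold change was 0.01 (SE 0.1, adjusted p = 0.958). The smaller fall with ATRA was not called without either ATRA library or without the second DMSO library (-0.21, adjusted p = 0.228).

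With both agents CEBPB was higher than with ATRA alone in both lines. In SKNO-1 4 of 5 members differed between both agents and ATRA alone (44.8% of genes called): CEBPB (log2 difference 1.48, adjusted p = 1.07e-04), CEBPA (0.72, adjusted p = 0.00709), CEBPD (-1.11, adjusted p = 0.00149) and CEBPG (-0.24, adjusted p = 0.0266), with CEBPE at -0.02 (-0.40, adjusted p = 0.0107, with the GC trend removed). In U-937 4 of 4 differed (47.4% called): CEBPB (0.78, adjusted p = 7.05e-05), CEBPE (0.38, adjusted p = 0.0245), CEBPG (-0.56, adjusted p = 7.06e-05) and CEBPA (-0.61, adjusted p = 3.18e-05). CEBPA thus went up in SKNO-1 and down in U-937, but with the GC trend removed neither passed the test (0.29, adjusted p = 0.102, and -0.31, adjusted p = 0.0718). The SKNO-1 value of CEBPA was not called without the first library with both agents (0.64, adjusted p = 0.0597), and that of CEBPG was called under 3 of 11 alternatives. The CEBPG call was lost without any of the 4 libraries compared in turn (adjusted p = 0.0679 to 0.174), with library totals (-0.22, adjusted p = 0.0957), with no filter on low counts (-0.21, adjusted p = 0.0689) and with the GC trend removed (-0.12, adjusted p = 0.0661). CEBPE in U-937 was at 0.16 (adjusted p = 0.489) without the first ATRA library and 0.62 without the second, and it was not called with library totals (0.33, adjusted p = 0.0574), with DESeq2 (0.38, adjusted p = 0.0819) or without the second library with both agents (0.33, adjusted p = 0.106).

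With both agents CEBPE and CEBPB were higher than with Corin alone in both lines. In SKNO-1 3 of 5 members differed between both agents and Corin alone (10.4% of genes called): CEBPB (log2 difference 1.43, adjusted p = 5.15e-04), CEBPA (1.42, adjusted p = 0.00152) and CEBPE (1.23, adjusted p = 0.0293). In U-937 3 of 4 differed (60.5% called): CEBPE (2.57, adjusted p = 6.50e-13), CEBPB (2.22, adjusted p = 8.77e-11) and CEBPG (-0.86, adjusted p = 9.79e-08). CEBPA was at -0.19 there (adjusted p = 0.117), and it was called with library totals (-0.32, adjusted p = 0.00289) and without the second library with both agents (-0.30, adjusted p = 0.0384). With the GC trend removed the SKNO-1 values were smaller, at 0.73 for CEBPB (adjusted p = 0.00747), 0.73 for CEBPA (adjusted p = 0.00622) and 0.76 for CEBPE (adjusted p = 0.0011), and CEBPG, at 0.08 (adjusted p = 0.453) in the test above, was at 0.24 and called (adjusted p = 0.00776). The SKNO-1 value of CEBPE ran from 1.16 to 1.3 and was not called (adjusted p = 0.156 to 0.229) when any of its 4 libraries was left out.

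The effects of ATRA and of Corin, on the log2 scale, were added and set against that of the combination, and the difference is the departure from additivity. In SKNO-1 it was called for none of the 5 members by edgeR, where 0.463% of all genes were called, although CEBPE (1.07, unadjusted p = 0.0223), CEBPB (0.86, unadjusted p = 0.00207) and CEBPA (0.55, unadjusted p = 0.0421), 3 of the 5, had an unadjusted p under 0.05. Without the first SKNO-1 DMSO library 2 members were called, CEBPB (0.78, adjusted p = 0.0132) and CEBPE (0.56, adjusted p = 0.0468), and without the second 4 were, CEBPE (1.52), CEBPB (1.03), CEBPA (0.81) and CEBPD (-0.67). In U-937, where 23.4% of genes were called, CEBPG (-0.57, SE 0.142, adjusted p = 0.00428) and CEBPA (-0.44, SE 0.146, adjusted p = 0.0303) lay below additivity. The call of CEBPG was kept in 14 of 14 alternatives and that of CEBPA in 7 of 14. The value of CEBPA was 0.02 (adjusted p = 0.967) with the GC trend removed, and it was not called without either DMSO library, the second ATRA library, the first Corin library or the first library with both agents (-0.46 to -0.32, adjusted p = 0.0678 to 0.255). CEBPB, at 0.39 (adjusted p = 0.178), was called above additivity with the GC trend removed (0.86, adjusted p = 0.0406, and 0.84, adjusted p = 0.0144, with the replicate block as well) and without the second ATRA library (0.61, adjusted p = 0.0309). In SKNO-1 CEBPB (0.89, adjusted p = 0.00799) and CEBPE (1.10, adjusted p = 1.07e-04) were called with no filter on low counts.

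The size of each response was compared between the lines by an interaction contrast over all 16 libraries, and 4 of 4 testable members differed with ATRA (19.4% of genes called), 1 of 4 with Corin (12.8%) and 4 of 4 with both (40.6%). The response of CEBPE was higher in U-937 than in SKNO-1 in each case, with a log2 difference of 2.72 with ATRA (SE 0.323, adjusted p = 1.98e-05), 1.73 with Corin (SE 0.341, adjusted p = 0.00317) and 3.12 with both (SE 0.323, adjusted p = 1.20e-06). Without the first SKNO-1 DMSO library these CEBPE differences were 2.12, 1.19 and 2.57, and without the second 3.07, 2.17 and 3.53. The response of CEBPA to both agents was lower in U-937, by a log2 difference of -1.90 (SE 0.174, adjusted p = 4.92e-08), and of -1.24 (adjusted p = 9.39e-04) with the GC trend removed. Its difference with ATRA (-0.58, SE 0.175, adjusted p = 0.0242) lost its call without the second SKNO-1 DMSO library (-0.42, adjusted p = 0.067), the second SKNO-1 ATRA library (-0.62, adjusted p = 0.0651), the first U-937 ATRA library (-0.53, adjusted p = 0.0904) or the first U-937 DMSO library (-0.62, adjusted p = 0.0524). That of CEBPB with both agents (0.59, SE 0.209, adjusted p = 0.029) was 1.30 (adjusted p = 0.00217) with the GC trend removed. It lost its call with library totals alone as the scaling (0.43, adjusted p = 0.0831) and without the first DMSO (0.46, adjusted p = 0.118) or combination library (0.52, adjusted p = 0.113) of SKNO-1. The same held without the first DMSO (0.54, adjusted p = 0.103) or second combination library (0.47, adjusted p = 0.129) of U-937. With Corin the difference for CEBPA (-0.34, adjusted p = 0.245) passed the test without the first SKNO-1 DMSO library (-0.58, adjusted p = 0.0254).

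The partners and regulators of the family are considered next, with 24 genes in the list. With both agents 6 rose and 7 fell in SKNO-1 (24.7% and 22% of all genes) and 10 rose and 10 fell in U-937 (33.1% and 32.2%), and the medians of the list were -0.12 and 0.02 against 0.05 and 0.03 over all genes. With ATRA 1 rose and 3 fell in SKNO-1 (2.96% and 3.79% of all genes) and 9 rose and 7 fell in U-937 (21.7% and 20.1%). With Corin 4 rose and 6 fell in SKNO-1 (20.5% and 17.3%) and 7 rose and 1 fell in U-937 (8.55% and 4.4%). These shares are given beside the backgrounds, from which nothing particular to the list is read.

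TRIB1, a pseudokinase that directs C/EBPα to degradation by the ligase COP1, went from 1.55 ± 0.355 CPM with DMSO (SD, n = 2) to 10.9 ± 0.288 with ATRA, 3.11 ± 0.884 with Corin and 31.5 ± 1.13 with both in U-937. Its log2 fold changes there were 2.82 (adjusted p = 3.35e-11), 1.00 (adjusted p = 0.00235) and 4.35 (adjusted p = 1.64e-15). In SKNO-1 TRIB1 rose with ATRA (1.06, adjusted p = 6.10e-04), fell with Corin (-1.34, adjusted p = 8.02e-05) and was at 0.01 with both (adjusted p = 0.932). TRIB2, which acts on C/EBPα in the same way, fell in U-937 with ATRA (-2.09, adjusted p = 1.27e-09) and with both (-3.32, adjusted p = 4.69e-13). The immediate-early factors FOS and EGR1 also carried large values in this list: FOS rose with both agents in U-937 (4.70, adjusted p = 6.05e-13) and fell with ATRA in SKNO-1 (-1.95, adjusted p = 1.86e-04), and EGR1 fell with ATRA in SKNO-1 (-3.09, adjusted p = 1.38e-04), as it did in U-937 (-2.59, adjusted p = 1.92e-06). In SKNO-1 BATF3, a zipper factor, rose with Corin (2.09, adjusted p = 0.00513) and with both (1.82, adjusted p = 0.00782). BATF3 fell in U-937 with ATRA (-1.61, adjusted p = 1.61e-07) and with both (-1.79, adjusted p = 1.16e-08).

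ATF4, the stress factor that pairs with C/EBPγ, fell in U-937 from 336.5 ± 13.5 CPM to 156.1 ± 5.78 with ATRA (SD, n = 2; log2 fold change -1.11) and 140.6 ± 9.1 with both (-1.25). In SKNO-1 ATF4 was at 0.02 with ATRA, 0.00 with Corin and -0.13 with both, none of them called. DDIT3, a family relative that acts as a dominant-negative partner, rose in U-937 with ATRA (0.52, adjusted p = 0.0041) and with both (0.50, adjusted p = 0.00346). SPI1, which encodes PU.1, rose in U-937 with ATRA (0.95, adjusted p = 1.66e-05) and with both (1.00, adjusted p = 3.27e-06), and was at 0.55 with both in SKNO-1 (adjusted p = 0.0806). CEBPZ, which shares the name but is not a zipper protein, fell with both agents in U-937 (-1.32, adjusted p = 2.23e-10) and by less in SKNO-1 (-0.43, adjusted p = 3.73e-04).

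Of the integrated stress response genes, those induced through ATF4 or the unfolded protein response, 15 were listed. In U-937 ATRA raised 3 and lowered 9 of 15 (21.7% and 20.1% of all genes) and both agents raised 4 and lowered 8 (33.1% and 32.2%), with list medians of -0.92 and -0.85 against 0.02 and 0.03 over all genes. Corin raised 4 and lowered 6 (8.55% and 4.4%; median -0.28 against 0.00). In SKNO-1 14 were tested, and the counts were 3 and 0 with ATRA (2.96% and 3.79%), 3 and 2 with Corin (20.5% and 17.3%) and 3 and 4 with both (24.7% and 22%), with medians of 0.06, -0.01 and 0.12 against 0.01, 0.00 and 0.05. PSAT1, of serine synthesis, fell from 168.7 ± 2.76 CPM to 24.7 ± 0.836 with ATRA and 4.39 ± 0.9 with both in U-937 (SD, n = 2; log2 fold changes -2.77 and -5.27). DDIT4, an inhibitor of mTOR signalling, rose in both lines with both agents (3.50 in SKNO-1 and 3.64 in U-937), so the members of this list moved in opposite directions.

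Several secondary granule genes are known to need C/EBPε. The list of 18 secondary and tertiary granule genes is wider than these, with CYBB and NCF4 of the phagocyte oxidase among them. A role of C/EBPε in their changes was not tested. Only 6 passed the filter on low counts in SKNO-1 and 10 in U-937, so the counts describe the genes that were measurable. Some passed only through treated groups. Over the U-937 DMSO libraries CEACAM1 had 2 counts, MMP8 4, CEACAM8 4 and HP 9. Over those of SKNO-1 CAMP had 2, and CEACAM1 and CYBB had 0. Such genes could hardly be found lowered, so the counts and medians are tilted toward rises. In U-937 ATRA raised 7 and lowered 1 of 10 (21.7% and 20.1% of all genes), Corin raised 7 and lowered 1 (8.55% and 4.4%), and both agents raised 8 and lowered 1 (33.1% and 32.2%), with medians of 1.63, 2.04 and 4. HP, haptoglobin, went from 0.145 ± 0.119 CPM with DMSO to 9.53 ± 1.12 with ATRA and 21.7 ± 1.56 with both (SD, n = 2). CEACAM1, an adhesion molecule, had 2 counts over the DMSO libraries and 7992 with both agents, a ratio of 3883 with an exact 95% interval of 1075 to 32070 (counting error only). CEACAM6 fell with Corin (-3.40, adjusted p = 6.44e-07).

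In SKNO-1 these granule genes had no common direction. Of the 6 tested, ATRA raised 0 and lowered 2 (2.96% and 3.79% of all genes), Corin raised 3 and lowered 1 (20.5% and 17.3%), and both raised 2 and lowered 1 (24.7% and 22%). CAMP and CYBB, raised with Corin, and CEACAM1 and CYBB, raised with both, were at or near 0 counts with DMSO. The medians were -1.23, 1.72 and 1.28, or -0.03, 1.03 and 1.28 with genes at 0 counts in a group set to their bound and genes at or below 3 counts in both groups set to 0. TCN1, a vitamin B12 carrier, fell with ATRA (-3.09, adjusted p = 1.06e-04) and rose with Corin (3.49, adjusted p = 4.70e-06), while CEBPE itself fell with Corin. CEACAM6 fell with ATRA (-2.41), Corin (-0.38) and both (-0.97).

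The list of primary granule genes held 10, of which 8 were tested in each line. It is not confined to neutrophil genes of the promyelocyte stage, and PRG2, EPX and RNASE3 in it are eosinophil granule genes. DEFA4 had 1 count over the U-937 DMSO libraries and passed the filter on low counts there only through the ATRA group (94 counts). BPI had 21 counts and PRG2 12 over the same DMSO libraries, so their place among the genes tested also leaned on treated groups. In U-937 ATRA raised 5 and lowered 0 (21.7% and 20.1% of all genes), Corin raised 1 and lowered 0 (8.55% and 4.4%), and both agents raised 1 and lowered 4 (33.1% and 32.2%), with medians of 0.78, 0.18 and -0.70. In SKNO-1 the counts were 1 and 1 with ATRA (2.96% and 3.79%), 0 and 5 with Corin (20.5% and 17.3%) and 2 and 3 with both (24.7% and 22%), with medians of 0.22, -0.75 and -0.59. The 5 lowered with Corin were MPO, ELANE and the eosinophil granule genes PRG2, EPX and RNASE3. BPI, a bactericidal protein, went from 0.324 ± 0.226 CPM with DMSO to 74.4 ± 7.18 with both agents in U-937 (SD, n = 2), while ELANE, neutrophil elastase, fell (-1.54, adjusted p = 4.86e-05). In SKNO-1 PRTN3, proteinase 3, rose with ATRA (1.91) and with both (3.06), and PRG2, an eosinophil granule protein, fell with both (-3.06, adjusted p = 1.12e-05). PRTN3 in U-937 rose with ATRA (1.61, adjusted p = 2.64e-09) and fell with both (-1.17, adjusted p = 1.28e-07). ELANE fell in SKNO-1 with Corin (-1.63, adjusted p = 0.00687), where the DMSO pair spread widely (36.4 ± 20.1 CPM, SD, n = 2).

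Receptors and other genes known as C/EBPα or C/EBPβ targets in myeloid cells numbered 18, of which 12 were tested in SKNO-1 and 16 in U-937. CD14 in SKNO-1 and S100A12 in U-937 had 0 counts with DMSO. They passed the filter on low counts only through treated groups. S100A8 in U-937 and TREM1 in SKNO-1 were low as well, with 22 and 24 counts over the DMSO libraries. Such genes tilt the list toward rises. Both agents raised 11 of 12 and lowered 0 in SKNO-1 (24.7% and 22% of all genes) and raised 14 of 16 and lowered 2 in U-937 (33.1% and 32.2%), with medians of 1.79 and 2.57. Corin alone raised 9 and lowered 1 in SKNO-1 (20.5% and 17.3%), with a median of 1.75, or 1.21 with the bounds, and raised 11 and lowered 0 in U-937 (8.55% and 4.4%), with a median of 1.77. ATRA alone raised 3 and lowered 4 in SKNO-1 (2.96% and 3.79%), with a median of -0.20, and raised 10 and lowered 3 in U-937 (21.7% and 20.1%), with a median of 1.24, or 0.81 with the bounds. ITGAM, the integrin chain CD11b, went from 0.394 ± 0.0789 CPM with DMSO to 37.4 ± 2.4 with Corin and 116.9 ± 0.769 with both in SKNO-1, and from 4.54 ± 0.163 to 100.3 ± 6.13 with ATRA and 360.2 ± 9.44 with both in U-937 (SD, n = 2). CSF1R, the macrophage growth factor receptor, rose in SKNO-1 with ATRA (1.78, adjusted p = 0.0267), Corin (3.44) and both (4.96), and in U-937 with ATRA (2.67), Corin (3.65) and both (5.29). S100A8, a calcium-binding alarmin, rose in U-937 from its low level with DMSO (0.343 ± 0.114 CPM, SD, n = 2) with ATRA (4.22), Corin (4.34) and both (7.33).

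The genes most like each member were ranked among the 10116 protein-coding genes whose mean reached 5 CPM, by Pearson r of log2 CPM over all 16 libraries, which mix both lines and 4 treatments. For CEBPA they were TUBA4A (0.986), SIRPA (0.982) and ARID3A (0.982), and for CEBPB TGFA (0.988), CSRP1 (0.987) and B4GALT5 (0.984). For CEBPE they were EHD1 (0.958), TMUB2 (0.954) and BCL7B (0.953), and for CEBPG they included SRPK1 (0.974) and DYNLL2 (0.972). For CEBPD they were BTBD3 (0.9995), SLC16A7 (0.9987) and CSMD3 (0.9987), where r mostly reflects the difference between lines, CEBPD being at 0 in one of them. CEBPA also differed more between the lines with DMSO (log2 difference 3.87) than with treatment (1.58 with both agents in SKNO-1). A difference between lines can thus give a high r for CEBPA as well.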

How the data were processed

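Per the labels, RNA of 16 libraries was sequenced from a stranded total RNA kit. Per the submitters' processing notes, Trimmomatic, STAR, RSEM, deepTools and DESeq2 were used with hg38; versions are not given in the sources used here. The authors deposited RSEM estimated counts per gene and TPM, and 6 tables of their own comparisons with log2 fold changes and adjusted p-values. Reads that fit several genes are divided by RSEM, so 20.4% of positive values were not whole; counts were rounded, which changed no library total by more than 42.03. The table has 0 spike-in rows, so RNA per cell was not measured.

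Here, genes passing filterByExpr (17479 in SKNO-1, 17717 in U-937, 19872 jointly) were tested with edgeR 4.0.16 (R 4.3.3, TMM scaling, robust quasi-likelihood fit, 4 residual degrees of freedom per line), with Benjamini-Hochberg adjustment over all genes and a threshold of 0.05. Differences between lines come from a fit of all 16 libraries. SE is that of the log2 fold change. A count of 0 is bounded by 3 counts. Intervals and bounds cover counting error only. With 2 libraries per group, leaving one out assumes that the lone library varies like the other groups. On simulated counts for ATRA against DMSO, 50 genes were changed at each fold. Of 50 changed 2-fold, 46 were called in SKNO-1 (17054 genes) and 49 in U-937 (17246 genes). Of 50 changed 1.5-fold, 27 and 26 were called. These rates hold for the spread set in the simulation only. The measured SKNO-1 DMSO pair spread more widely (SD 0.361) and followed gene GC content (r = 0.787). Recovery under that spread was not tested, so the SKNO-1 rates may be too high for comparisons with DMSO. Alternatives were library totals without TMM, DESeq2 1.42.0, no low-count filter, a replicate block, removal of a trend on gene GC content, leaving out each library, and fitting only the libraries compared.

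The members and gene lists were chosen with earlier results of these data known. From each list the 2 called genes with the largest change and a mean of at least 1 CPM in the line could be named per comparison. TRIB1, TRIB2, ATF4, DDIT3, SPI1, CEBPZ, CEBPA-DT and CEBPB-AS1 were also named for their roles where this rule did not name them, after their values had been seen. Some genes that the rule named in a comparison are also given in others. Promoter windows come from RefSeq (GRCh38.p14), and gene positions and GC content from GENCODE 44, by identifier for 60306 of 60603 genes. One marker gene and one gene of the likeness ranking are not reported here.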

Additional observations from a re-analysis of the deposited data

Results flagged for a closer look

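The response of a member differed between the lines in 9 cases, each by the interaction contrast of a fit of all 16 libraries (U-937 effect minus SKNO-1 effect on the log2 scale, edgeR's quasi-likelihood test).

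With ATRA, 4 of 4 members tested differed (19.4% of the 19872 genes tested were called). The difference was 2.72 for CEBPE (SE 0.323, adjusted p = 1.98e-05), 1.29 for CEBPB (SE 0.215, adjusted p = 2.28e-04), -0.58 for CEBPA (SE 0.175, adjusted p = 0.0242) and -0.45 for CEBPG (SE 0.132, adjusted p = 0.0198). Those of CEBPE and CEBPB were called under each alternative run and ran from 2.12 to 3.07 and from 1.02 to 1.43. That of CEBPG was called under each alternative run as well, at an adjusted p up to 0.0474. That of CEBPA was not called without the second SKNO-1 DMSO library (-0.42, adjusted p = 0.067), the second SKNO-1 ATRA library (-0.62, adjusted p = 0.0651), the first U-937 ATRA library (-0.53, adjusted p = 0.0904) or the first U-937 DMSO library (-0.62, adjusted p = 0.0524).

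With Corin, CEBPE alone differed of 4 tested (12.8% of genes called), by 1.73 (SE 0.341, adjusted p = 0.00317), since it fell in SKNO-1 and rose in U-937. The difference was 1.19 without the first SKNO-1 DMSO library and 2.17 without the second. Without the first, CEBPA was called too (-0.58, adjusted p = 0.0254).

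With both agents, 4 of 4 differed (40.6% called). The difference was 3.12 for CEBPE (SE 0.323, adjusted p = 1.20e-06), -1.90 for CEBPA (SE 0.174, adjusted p = 4.92e-08), -0.77 for CEBPG (SE 0.133, adjusted p = 1.03e-04) and 0.59 for CEBPB (SE 0.209, adjusted p = 0.029). The median over all genes of this difference was -0.11, and -0.26 with library totals, and it was 0.01 with the GC trend removed. The value of CEBPB was 1.30 (adjusted p = 0.00217) with the GC trend removed, and that of CEBPA -1.24 (adjusted p = 9.39e-04). The value of CEBPB was not called with library totals (0.43, adjusted p = 0.0831) or without the first SKNO-1 DMSO library (0.46, adjusted p = 0.118), the first SKNO-1 library with both agents (0.52, adjusted p = 0.113), the first U-937 DMSO library (0.54, adjusted p = 0.103) or the second U-937 library with both agents (0.47, adjusted p = 0.129).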

How the results depend on the processing

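Of 71 tests of members, 46 were calls, 29 of these were called under every alternative run for them and 45 kept their sign. The sign turned for the departure from additivity of CEBPA in U-937, from -0.44 to 0.02 with the GC trend removed; the cause was not tested. With 2 libraries per group and 4 residual degrees of freedom per line, precision is limited.

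The number of members called by ATRA in SKNO-1 was 2, with DESeq2 1, in a fit of only the libraries compared 0, and 0 to 4 with a library left out. By Corin in SKNO-1 it was 3, in a fit of only the libraries compared 0, and 0 to 5 with a library left out. For both agents against ATRA in SKNO-1 it was 4, and 2 to 3 with a library left out. For additivity in SKNO-1 it was 0, with no low-count filter 2, and 0 to 4 with a library left out, and in U-937 it was 2, and 1 to 2. By Corin in U-937 it was 1, with no low-count filter 2, with the GC trend removed 0 (also together with the replicate block), in a fit of only the libraries compared 2, and 0 to 2 with a library left out. For the difference between lines with Corin it was 1, and 1 to 2.

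The labels number the replicates alike in each group, but deviations of same-numbered libraries did not agree (r from -0.473 to 0.402 across genes), so the numbers are not taken as pairs. With the replicate block 45 of 46 calls were kept and 0 were added; in SKNO-1 with ATRA the number of members called was 1, CEBPB being lost.

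Over all genes, removing the GC trend changed the calls for ATRA in SKNO-1 from 1181 to 2463, for both agents against Corin in SKNO-1 from 1822 to 2989, for additivity in SKNO-1 from 81 to 587 and for the difference between lines with Corin from 2538 to 4413. It changed the split of higher and lower calls for Corin in U-937 from 1514 and 779 to 1483 and 1401, for additivity from 1434 and 2713 to 2534 and 2325 in U-937 and from 55 and 26 to 298 and 289 in SKNO-1, and for the difference between lines with Corin from 1050 and 1488 to 2410 and 2003. Library totals without TMM changed it for the difference between lines with ATRA from 2100 and 1750 to 1726 and 2358. They moved the median log2 value of all genes between the DMSO groups of the lines from -0.01 to 0.15, for both agents against Corin in U-937 from 0.02 to -0.11, for both agents against DMSO in U-937 from 0.03 to -0.09 and for the difference between lines with both agents from -0.11 to -0.26. Family shares computed from counts per effective length stayed close to those from TPM, as for CEBPG in SKNO-1 with DMSO (55.3% against 55.2%).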

Other observations

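The genes on either side of CEBPD on chromosome 8 were looked at after its 0 counts in U-937 had been seen. SPIDR, a DNA repair scaffold, was at 56.4 to 73.2 CPM in the 8 U-937 libraries and at 60.7 to 78.8 CPM in SKNO-1. PRKDC, the catalytic subunit of the DNA-dependent protein kinase, was at 410.1 to 2245 CPM in U-937 and at 1340 to 1758 CPM in SKNO-1. Both neighbours thus had reads in all U-937 libraries.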
